A study of Homo sapiens with 8 samples.

Results

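The type IV collagen genes, COL4A1 to COL4A6, were described in 8 RNA sequencing libraries of HCT116, a widely used human cell line from a colon cancer. They are the 6 of 60609 gene identifiers in the count table that carry these symbols in the GENCODE 29 annotation. The family was taken up because a member, COL4A6, stood out, with a 4.57-fold higher level, when edited and parental cells were compared. The members' values in that comparison are therefore given as a description, with no test. The parental group was 4 libraries with wild-type GNAS, whose treatment is labelled Ctrl. The second group was 4 libraries of a CRISPR-Cas9-edited derivative with the R201C change on one GNAS allele, written GNAS R201C/+. The GNAS product is the alpha subunit of the stimulatory G protein, which turns on adenylyl cyclase, and R201C is a known activating change. Both groups share the HCT116 background and the same serum-containing medium. The labels do not say whether the derivative is a single clone, nor whether replicates were separate cultures, so the spread between libraries may be technical. In bulk RNA, fewer cells of a type and less RNA per cell cannot be told apart.

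Type IV collagen is the network-forming collagen of basement membranes. Each protomer is a triple helix of alpha chains, and cells assemble only certain combinations. The products of COL4A1 and COL4A2 form the protomer of nearly all basement membranes, those of COL4A3, COL4A4 and COL4A5 form that of the kidney glomerulus, and those of COL4A5 and COL4A6 form one found in smooth muscle and some epithelial basement membranes. Inherited changes in COL4A3, COL4A4 or COL4A5 cause Alport syndrome, and deletions reaching from COL4A5 into COL4A6 cause Alport syndrome with diffuse leiomyomatosis. The genes lie as 3 head-to-head pairs, in which 2 genes start close together and are read in opposite directions.

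In GRCh38, COL4A1 (ENSG00000187498.16, chr13:110148963-110307233, minus strand) and COL4A2 (ENSG00000134871.19, chr13:110305812-110513209, plus strand) overlapped by 1422 bases at their starts as annotated. COL4A3 (ENSG00000169031.19, chr2:227164565-227314792, plus strand) and COL4A4 (ENSG00000081052.12, chr2:227002711-227164453, minus strand) had 111 bases between their starts. COL4A5 (ENSG00000188153.13, chrX:108439844-108697545, plus strand) and COL4A6 (ENSG00000197565.15, chrX:108155607-108439497, minus strand) had 346. All 6 genes matched an entry in a RefSeq table of promoter windows on GRCh38.p14, which run from 250 bases before to 50 bases after a transcription start. The RefSeq starts were 127 bases apart for COL4A1 and COL4A2, and 419 apart for COL4A3 and COL4A4. COL4A6 has 2 starts in that table, 380 and 1416 bases from the start of COL4A5. Gene counts do not separate transcripts from these 2 starts.

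The windows of the X chromosome pair are shown because COL4A5 and COL4A6 are the members that differed most between the groups, with 1 window of each other pair for contrast. Letters are read 5′ to 3′ on the gene's own strand, and capitals mark matches on either strand to the CCAAT box (CCAAT), the GC box (GGGCGG), the CTC box (CCCTNCCCC) and the cAMP response element half-site (TGACG).
COL4A5, chrX:108439588-108439887, plus strand: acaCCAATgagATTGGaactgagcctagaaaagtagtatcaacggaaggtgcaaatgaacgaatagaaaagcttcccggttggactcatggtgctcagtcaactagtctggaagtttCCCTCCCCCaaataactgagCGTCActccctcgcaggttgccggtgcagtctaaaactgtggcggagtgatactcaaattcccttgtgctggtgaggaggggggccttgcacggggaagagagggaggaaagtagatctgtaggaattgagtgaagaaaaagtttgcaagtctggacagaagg
COL4A6 first start, chrX:108439409-108439708, minus strand: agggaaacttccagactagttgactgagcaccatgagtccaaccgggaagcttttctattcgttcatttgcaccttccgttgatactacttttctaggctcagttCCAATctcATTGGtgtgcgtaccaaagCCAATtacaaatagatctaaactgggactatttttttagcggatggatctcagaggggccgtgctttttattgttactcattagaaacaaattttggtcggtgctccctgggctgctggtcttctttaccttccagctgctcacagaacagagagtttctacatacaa
COL4A6 second start, chrX:108438373-108438672, minus strand: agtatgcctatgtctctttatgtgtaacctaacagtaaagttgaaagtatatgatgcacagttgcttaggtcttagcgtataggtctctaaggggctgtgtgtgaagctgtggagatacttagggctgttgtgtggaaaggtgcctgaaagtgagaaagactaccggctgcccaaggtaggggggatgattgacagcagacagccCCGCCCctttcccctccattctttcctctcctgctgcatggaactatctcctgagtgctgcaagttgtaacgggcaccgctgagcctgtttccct
COL4A1, chr13:110307108-110307407, minus strand: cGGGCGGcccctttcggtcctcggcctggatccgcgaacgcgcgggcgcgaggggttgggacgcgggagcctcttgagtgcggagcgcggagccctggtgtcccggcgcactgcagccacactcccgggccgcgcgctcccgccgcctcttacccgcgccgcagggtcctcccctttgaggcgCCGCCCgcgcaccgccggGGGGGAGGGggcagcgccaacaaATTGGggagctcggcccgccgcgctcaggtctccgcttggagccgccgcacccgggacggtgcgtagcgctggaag
COL4A3, chr2:227164374-227164673, plus strand: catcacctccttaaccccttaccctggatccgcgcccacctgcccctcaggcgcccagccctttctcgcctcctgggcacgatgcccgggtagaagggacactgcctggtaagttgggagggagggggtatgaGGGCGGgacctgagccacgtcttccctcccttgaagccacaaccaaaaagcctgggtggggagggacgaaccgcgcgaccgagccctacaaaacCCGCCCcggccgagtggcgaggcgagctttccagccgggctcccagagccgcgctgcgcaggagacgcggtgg

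The windows differed in base composition. The median G+C content of all 35116 windows of 300 bases in the table was 58.7%. COL4A5 had 49.3% with 8 CpG dinucleotides, and the 2 COL4A6 windows had 43.7% with 7 and 50% with 5. COL4A1 had 76.7% and COL4A2 77.7%, each with 45 CpG, COL4A3 had 67.7% with 24, and COL4A4 had 74% with 29. The X-linked pair was therefore on the G+C-poor side of that median and both autosomal pairs on the rich side.

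The COL4A5 window and the first COL4A6 window share an inverted pair of CCAAT letters, read from opposite strands. COL4A5 also held 1 half-site 113 bases before its start (CGTCA on the strand shown) and 1 CTC box, and the first COL4A6 window held another CCAAT match. The COL4A1 and COL4A2 windows overlap and share a CCAAT match, a CTC box and a GC box. In all, COL4A1 held 2 GC boxes, COL4A2 1, COL4A3 2 and the second COL4A6 window 1, and the COL4A4 window held none of the letters searched. The share of all windows with at least 1 match was 34.6% for the CCAAT box, 45% for the GC box, 11.4% for the CTC box and 24.6% for the half-site. The full cAMP response element (TGACGTCA, 1.85% of windows, which contains the half-site) and TATAAA (11.5%) were in none of the 7 member windows. These matches describe letters only.

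The libraries held 42584988 to 50986733 counts. GNAS itself was counted at 677 ± 16.8 CPM (reads per 1000000 counts of the library, mean ± SD, n = 4) in parental cells and 711 ± 13.2 CPM in GNAS R201C/+ cells (log2 fold change 0.07, edgeR adjusted p = 0.00412). Gene counts carry no allele, so they do not check the edit. Of 10 colon epithelial markers, 6 passed the filter on low counts; KRT8, KRT18 and EPCAM were among the abundant ones, at 1715, 912 and 320 CPM in parental cells, while CDX1 was at 0 in every library and VIL1, LGALS4 and CDH17 were under the filter. The fibroblast markers DCN, LUM and PDGFRA and the endothelial marker CLDN5 were at 0 in every library. Other markers of these lists were counted. Of 10 fibroblast markers 3 passed the filter, with COL1A1 at 30.25 CPM in parental cells. Of 8 endothelial markers 2 passed, with ESAM at 6.34 CPM in parental cells.

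COL4A5 and COL4A6 were the members with the clearest separation between the groups. COL4A5 encodes the chain shared by the glomerular and the smooth muscle type of network. It was counted at 22.3, 22.2, 22.0 and 22.1 CPM in parental replicates 1 to 4 and at 59.8, 54.6, 55.7 and 56.0 CPM in GNAS R201C/+ replicates 1 to 4. The groups did not overlap, and the parental libraries lay close together. The means were 22.2 ± 0.122 and 56.5 ± 2.29 CPM (SD, n = 4 each), a 2.55-fold difference (log2 fold change 1.35, standard error 0.03). These values rest on 941 to 1133 reads per parental library and 2489 to 2794 per GNAS R201C/+ library.

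COL4A6 encodes the chain that joins the COL4A5 product in the network without COL4A3 and COL4A4. Its level was 1.99, 1.76, 2.11 and 1.71 CPM in parental replicates 1 to 4. In GNAS R201C/+ replicates 1 to 4 it was 8.24, 8.94, 9.65 and 7.89 CPM. Every GNAS R201C/+ library was above every parental library, with the highest parental value at 2.11 CPM and the lowest GNAS R201C/+ value at 7.89 CPM. The means were 1.89 ± 0.189 and 8.68 ± 0.777 CPM (SD, n = 4 each), a 4.57-fold difference (log2 fold change 2.19, standard error 0.09). The counts behind them were 73 to 101 reads per parental library and 385 to 456 per GNAS R201C/+ library. Ordered by log2 fold change from the highest, COL4A6 was at place 24 and COL4A5 at place 68 of 15751 tested genes.

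COL4A3 and COL4A4, whose products join that of COL4A5 in the glomerular network, differed by far less. COL4A4 was counted at 16.5, 18.1, 16.2 and 16.3 CPM in parental replicates 1 to 4 and at 21.1, 22.2, 19.6 and 20.5 CPM in GNAS R201C/+ replicates 1 to 4. The groups did not overlap, although parental replicate 2 stood above the other parental libraries. The means were 16.8 ± 0.898 and 20.8 ± 1.09 CPM (SD, n = 4 each), a 1.24-fold difference (log2 fold change 0.31, standard error 0.05).

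COL4A3 carries the target of the autoantibodies of Goodpasture disease. Its level was 5.10, 4.94, 5.50 and 6.38 CPM in parental replicates 1 to 4 and 6.62, 6.38, 6.92 and 6.46 CPM in GNAS R201C/+ replicates 1 to 4. The groups touched, since parental replicate 4 (6.382 CPM) lay just above GNAS R201C/+ replicate 2 (6.379 CPM). The means were 5.48 ± 0.647 and 6.59 ± 0.238 CPM (SD, n = 4 each), a 1.21-fold difference (log2 fold change 0.27, standard error 0.09). By log2 fold change COL4A4 was at place 1618 and COL4A3 at place 1922 of 15751. COL4A3 shares 120 exonic bases, 1.32% of its exons, with the antisense gene AC097662.1, which had 51 to 81 reads per library and 1.31 ± 0.122 and 1.43 ± 0.193 CPM (edgeR adjusted p = 0.487).

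COL4A1 and COL4A2, the pair that supplies nearly all basement membranes, were close to undetected in both groups. COL4A1 had 6, 6, 2 and 7 reads in parental replicates 1 to 4 and 4, 6, 6 and 4 reads in GNAS R201C/+ replicates 1 to 4. COL4A2 had 8, 4, 6 and 7 reads in the parental libraries and 6, 9, 5 and 9 in the GNAS R201C/+ libraries. The groups overlapped for both genes, and neither passed the filter on low counts. Fitted with no filter, their log2 fold changes were -0.11 and 0.17. At a mean of 0.115 and 0.137 CPM in parental cells, a difference between the groups was not detectable at this depth.

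The 4 members that passed the filter were COL4A3, COL4A4, COL4A5 and COL4A6, and all 4 were called as higher in GNAS R201C/+ cells in the edgeR fit over all genes, with none lower. Calls were made at a Benjamini-Hochberg adjusted p under 0.05. Of all 15751 tested genes 48.1% were called, 24.1% as higher. Groups did not overlap for 3 members, COL4A4, COL4A5 and COL4A6, against 41.6% of tested genes in either direction and 20.7% in the higher direction. Because the family was chosen on this contrast, nothing is read from these counts. The size of the difference is what sets members apart from each other: 0.838% of tested genes were called and at least 2-fold higher, and COL4A5 and COL4A6 are among those 132 genes, while COL4A3 and COL4A4 are not.

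**Figure D1:**
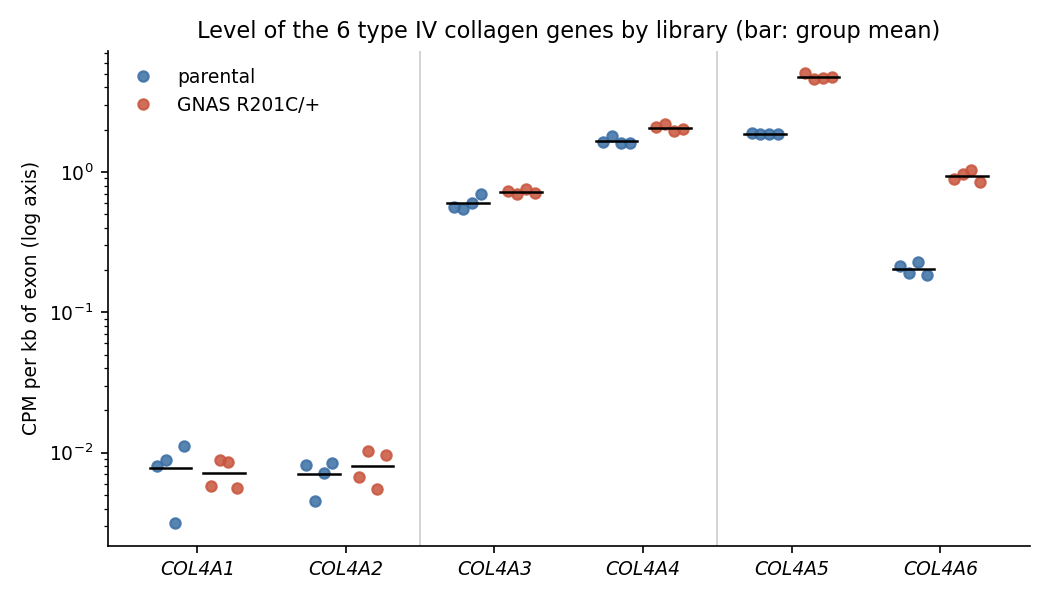
Level of each type IV collagen gene in each library, as CPM per kb of union exonic length on a log axis; points are libraries, bars are group means (n = 4), and vertical lines separate the head-to-head pairs. COL4A1 and COL4A2 sit near 0.01 in both groups, COL4A3 and COL4A4 shift little, and COL4A5 and COL4A6 separate by group.

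Levels of different genes were compared per kilobase (kb) of union exonic length, which ranged from 9124 bases for COL4A3 to 19293 for COL4A2. In parental cells the level was highest for COL4A5 at 1.87 ± 0.0103 CPM per kb (SD, n = 4), followed by COL4A4 at 1.66 ± 0.0892, COL4A3 at 0.601 ± 0.0709 and COL4A6 at 0.204 ± 0.0203. COL4A1 at 0.00779 ± 0.00337 and COL4A2 at 0.00710 ± 0.00181 CPM per kb came last and did not differ beyond their spread. In GNAS R201C/+ cells COL4A5 was again highest, at 4.76 ± 0.193 CPM per kb, and COL4A4 next at 2.07 ± 0.109. COL4A6 at 0.935 ± 0.0838 CPM per kb stood above COL4A3 at 0.723 ± 0.0261, so these 2 genes changed places in the order. COL4A1 and COL4A2, at 0.00723 ± 0.00179 and 0.00798 ± 0.00228 CPM per kb, were again last.

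Summed over the 6 genes, the level was 4.35 ± 0.0540 CPM per kb in parental and 8.50 ± 0.182 CPM per kb in GNAS R201C/+ cells (SD, n = 4 each), a 1.96-fold difference. COL4A3 and COL4A4 together held 52.0% ± 1.02 of the parental sum and 32.8% ± 1.01 of the GNAS R201C/+ sum. COL4A5 and COL4A6 together held 47.6% ± 1.05 and 67.0% ± 1.05. COL4A5 alone went from 42.9% to 56.0% and COL4A6 from 4.70% to 11.01%, while COL4A1 and COL4A2 together held 0.342% and 0.179%. The share depends on the gene length used: per kb of the longest coding transcript, COL4A5 and COL4A6 held 60.8% of the parental and 77.3% of the GNAS R201C/+ sum, so the order of the pairs in parental cells turned while the difference between the groups kept its direction.

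The balance within each pair was compared as the log2 ratio of CPM per kb in each library. COL4A4 was above COL4A3 by 1.48 ± 0.22 log2 units in parental and 1.51 ± 0.12 in GNAS R201C/+ cells, which is 2.78-fold and 2.86-fold. The difference of 0.04 (standard error 0.13) was within the spread between libraries. COL4A6 was below COL4A5, with a ratio of -3.20 ± 0.14 in parental and -2.35 ± 0.16 in GNAS R201C/+ cells, that is 9.19-fold and 5.11-fold lower. The parental libraries ranged from -3.33 to -3.03 and the GNAS R201C/+ libraries from -2.51 to -2.17, without overlap, and the difference was 0.85 (standard error 0.11). For COL4A2 over COL4A1, with 2 to 9 reads per gene and library, the ratio was -0.03 ± 0.92 and 0.13 ± 0.59, and no difference was detectable at this depth. So COL4A3 and COL4A4 kept their ratio within the spread, while the COL4A6 to COL4A5 ratio differed between the groups; all are descriptions of the contrast on which the family was chosen.

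**Figure D2:**
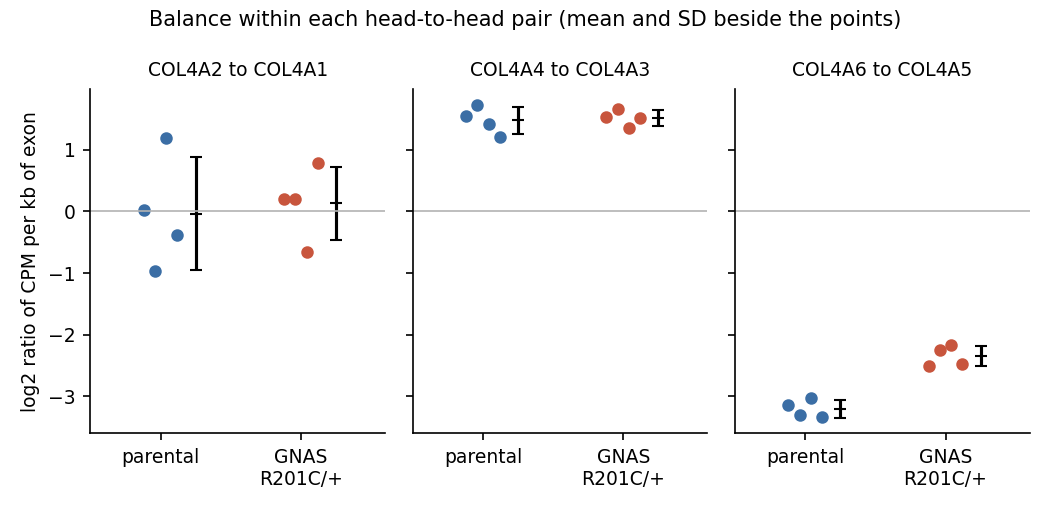
Log2 ratio of CPM per kb of exon within each head-to-head pair; points are libraries, and the bars beside them are the mean and SD of the group (n = 4). The COL4A4 to COL4A3 ratio lies near 1.5 in both groups, the COL4A6 to COL4A5 ratio moves from -3.20 to -2.35, and the COL4A2 to COL4A1 ratio scatters with its few reads.

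Protein-coding genes within 1 Mb of each pair were counted to see how the surroundings of the members behaved. Next to COL4A5 and COL4A6, 10 of 17 such genes were tested, and all 10 were called, 4 as higher and 6 as lower. Over all tested genes 48.1% were called, and over those on chromosome X 46.4%. The 10 neighbours had a median log2 fold change of -0.11 against 0.0019 over all tested genes. With one library left out, 7 to 9 of the 10 were called, and with DESeq2 7; the calls that ended were those of NUP62CL, FRMPD3, KCNE5 and MID2. PSMD10, a proteasome assembly factor, rose (log2 fold change 0.22, edgeR adjusted p = 7.63e-07), as did NXT2, an mRNA export factor (0.17, adjusted p = 0.000183). ACSL4, which activates long-chain fatty acids, fell (-0.11, adjusted p = 7.09e-05), as did PRPS1, a phosphoribosyl pyrophosphate synthetase (-0.10, adjusted p = 0.000278), and TSC22D3, the glucocorticoid-induced leucine zipper gene (-0.27, adjusted p = 0.00138). IRS4, an insulin receptor substrate gene 34936 bases from the pair, had no read in any library. The neighbours thus moved in both directions and less than either member.

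Next to COL4A3 and COL4A4, 4 of 18 genes were tested, and 2 were called higher and 1 lower, beside 48.1% of all tested genes called. The median log2 fold change of the 4 was 0.02. IRS1, an insulin receptor substrate gene 202951 bases from the pair, rose from 182 ± 1.07 to 282 ± 5.04 CPM (SD, n = 4 each; log2 fold change 0.63, edgeR adjusted p = 2.18e-27), more than either collagen gene beside it. RHBDD1, a rhomboid protease gene, rose by 0.08 (adjusted p = 0.0118). AGFG1 changed by -0.06 (adjusted p = 0.0386), a call that ended under 9 of 16 alternatives (highest adjusted p 0.142), among them those without parental replicate 2, 3 or 4 or GNAS R201C/+ replicate 2, 3 or 4.

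Next to COL4A1 and COL4A2, 8 of 9 genes were tested, none was called higher and 3 were called lower. This is 37.5% called, beside 48.1% of all tested genes. The median log2 fold change of the 8 was -0.02. IRS2, 362394 bases from the pair, fell from 29.3 ± 0.93 to 21.0 ± 1.23 CPM (log2 fold change -0.48, edgeR adjusted p = 1.26e-13). The calls of ARHGEF7 (-0.06, adjusted p = 0.0198) and NAXD (-0.07, adjusted p = 0.0413) were not stable. The call of ARHGEF7 ended under 3 of 16 alternatives, those without parental replicate 2 or GNAS R201C/+ replicate 1 or 4 (highest adjusted p 0.0757). That of NAXD ended under 7, among them those without parental replicate 1, 3 or 4 or GNAS R201C/+ replicate 1 or 2 (highest adjusted p 0.198), and without GNAS R201C/+ replicate 1 only 1 neighbour of this pair was called. Levels of the genes beside COL4A1 and COL4A2 varied. In GNAS R201C/+ cells RAB20 was at 13.7 CPM, CARS2 at 57.1 CPM and ANKRD10 at 104 CPM, none of them called. MYO16 and TEX29 were near the floor, at 0.249 and 0.226 CPM in GNAS R201C/+ cells. Chromosome X as a whole had 46.4% of its 476 tested genes called, chromosome 2 45.6% of 1061 and chromosome 13 49.1% of 275.

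**Figure D3:**
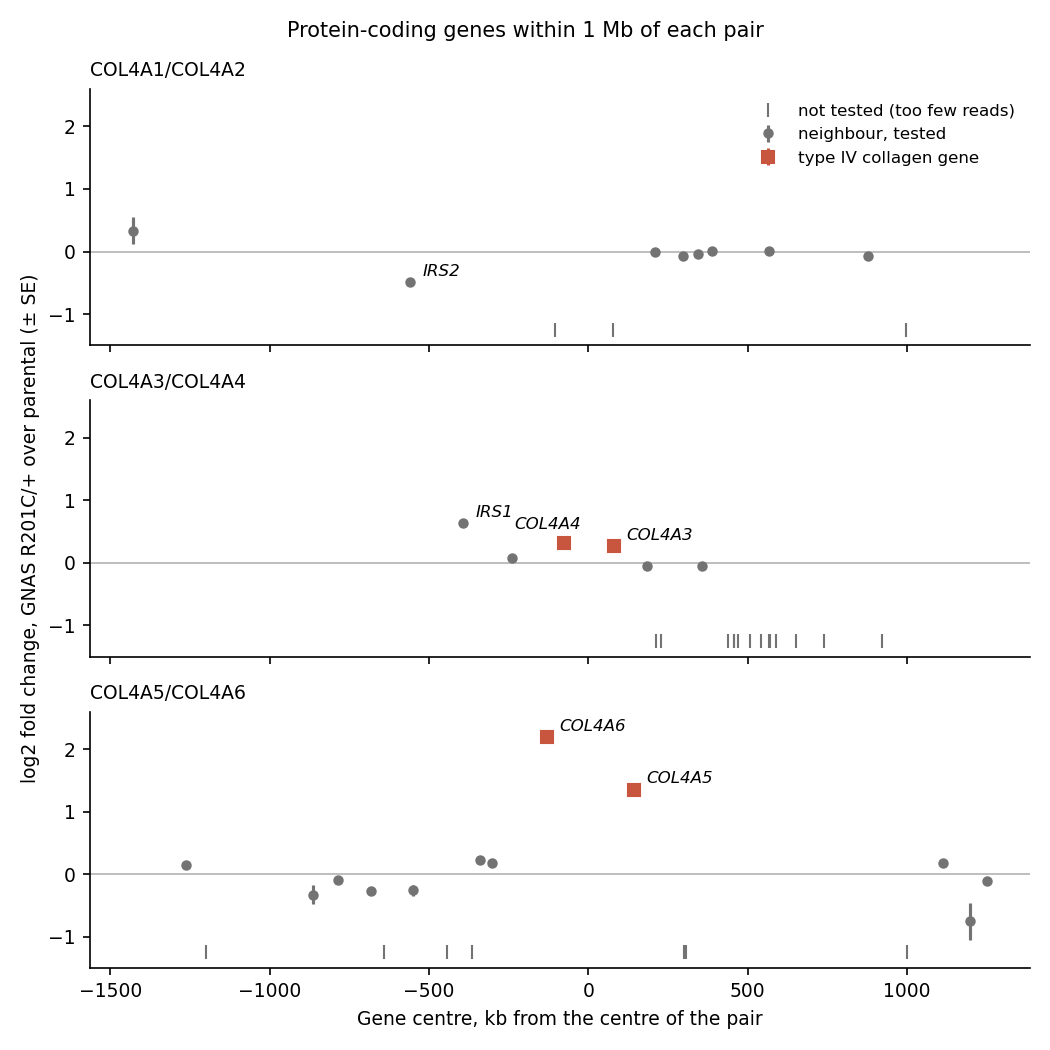
Log2 fold change (GNAS R201C/+ over parental, ± standard error) of protein-coding genes within 1 Mb of each pair, by distance in kb of the gene's centre from the centre of the pair; squares are type IV collagen genes, circles tested neighbours, and ticks genes with too few reads. COL4A5 and COL4A6, at 1.35 and 2.19, lie apart from their neighbours, while COL4A3 and COL4A4 lie below IRS1.

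Among all protein-coding genes, pairs arranged head to head with at most 1000 bases between their starts were examined. The pairs COL4A3 with COL4A4 and COL4A5 with COL4A6 are included. This comparison was chosen after the members' values were seen. Both genes were tested in 562 such pairs. Both were called in the same direction in 92 pairs (16.4%), in opposite directions in 53, only 1 gene was called in 261 and neither in 156. Ordered by the smaller absolute log2 fold change among pairs called in the same direction, COL4A5 and COL4A6 were second (1.35), behind PLPP3 and PRKAA2 (1.62), and these were the only 2 pairs in which both genes were at least 2-fold changed in the same direction. COL4A3 and COL4A4 were at place 13 (0.27). The family was chosen on this same contrast, so the places of its pairs are a description only. COL4A1 and COL4A2 overlap at their starts, were not tested and are not in this count.

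**Figure D4:**
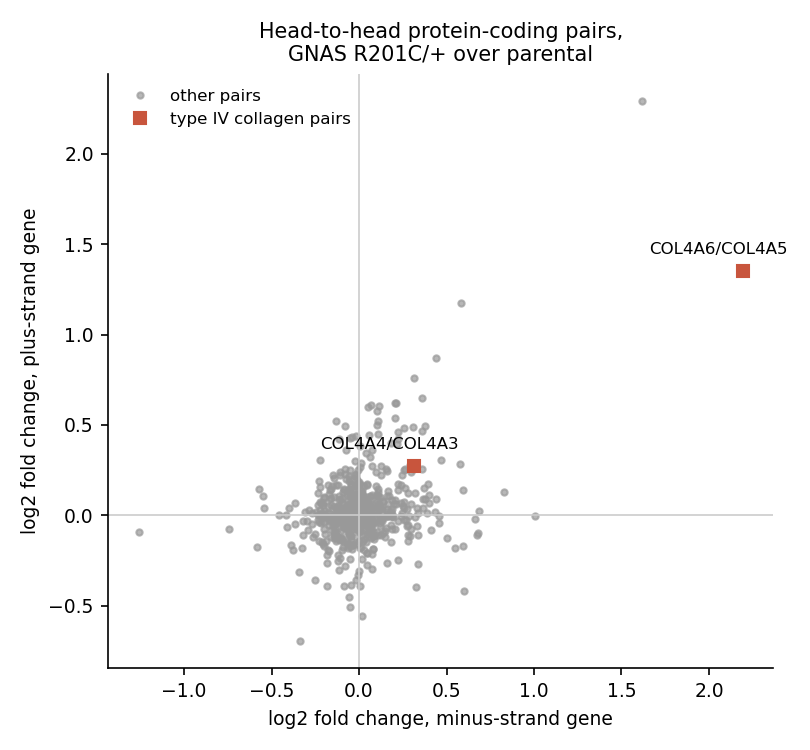
Log2 fold change (GNAS R201C/+ over parental) of the minus-strand gene against that of the plus-strand gene for 562 head-to-head protein-coding pairs; squares are the 2 type IV collagen pairs. COL4A6 and COL4A5 lie at 2.19 and 1.35, and COL4A4 and COL4A3 at 0.31 and 0.27, near the main cloud.

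Genes with a pattern over the 8 libraries most like a member's were found by the root mean square (RMS) difference of log2 CPM after centring each gene, among 10502 genes with a mean of at least 5 CPM. The libraries fall into their 2 groups, so likeness here depends on the size of the difference and on the scatter between libraries of a group. Nearest to COL4A5 were DKK1, a Wnt antagonist (RMS 0.0566), WNT16, a Wnt ligand (0.0740), LGR4, an R-spondin receptor (0.0853), SEMA3A, a guidance factor (0.0853), and KRT80, a keratin (0.0947). Nearest to COL4A6 were PRKAA2, an AMP-activated kinase subunit (0.136), SEMA3C (0.189), HPD, an enzyme of tyrosine breakdown (0.195), KRT81 (0.213, uncertain because of near-identical copies) and KRT7 (0.262). Nearest to COL4A4 were GRAMD2B (0.0355), KLF12, NEURL1B, PURB and ZBTB38 (0.0509), and nearest to COL4A3 were WAC-AS1 (0.0630), SECTM1, ZDHHC24, TBPL1 and NIPSNAP3A (0.0714). The partner of the pair was ranked among all 15750 other tested genes, with no minimum level, and was not the nearest in any case: COL4A6 was at place 438 from COL4A5, COL4A5 at place 36 from COL4A6, COL4A4 at place 3383 from COL4A3, and COL4A3 at place 4018 from COL4A4. COL4A3 and COL4A4 had close log2 fold changes (0.27 and 0.31). Their RMS difference of 0.155 therefore lay mostly in the scatter within the groups.

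Of 26 genes that fold, modify and export collagen chains 25 were tested, 15 were called higher, 1 lower and 9 were not called, beside 24.1% of all tested genes called higher and 24% called lower. They had a median log2 fold change of 0.14 against 0.0019 over all tested genes. SERPINH1, the collagen-specific chaperone HSP47, rose from 221 ± 3.26 to 284 ± 4.08 CPM (SD, n = 4 each; log2 fold change 0.36, edgeR adjusted p = 4.1e-19). Prolyl hydroxylation stabilises the triple helix, and its enzyme subunits P4HA2 (58.5 to 76.8 CPM, log2 fold change 0.39, adjusted p = 4.25e-17) and P4HB (1408 to 1736 CPM, 0.30, adjusted p = 2.49e-16) rose. PLOD1, a lysyl hydroxylase, rose by 0.20 (adjusted p = 1.35e-11). CREB3L2, a transcription factor that in mouse cartilage promotes export of collagen, rose from 79.0 to 105 CPM (0.41, adjusted p = 4.03e-17). PLOD2, another lysyl hydroxylase, was the 1 gene called lower (-0.09, adjusted p = 0.0166), a call that ended without parental replicate 4 and without GNAS R201C/+ replicate 3 (it was picked with its values in view, as were other genes outside the naming rule).

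Enzymes that cross-link or modify the assembled network went both ways. Of 8 listed genes 7 were tested, 2 were called higher, 3 lower and 2 were not called, with a median log2 fold change of -0.09. The called share was 71.4%, beside 48.1% over all tested genes. PXDN, peroxidasin, which forms the sulfilimine bonds between type IV collagen protomers, fell from 44.0 ± 0.634 to 35.6 ± 1.01 CPM (log2 fold change -0.31, edgeR adjusted p = 3.61e-11). The lysyl oxidase family gene LOXL3 fell (-0.43, adjusted p = 4.18e-05) and LOXL1 rose (0.26, adjusted p = 0.000992), while LOXL2 was at 38.9 and 39.8 CPM (adjusted p = 0.425). COL4A3BP, which encodes a ceramide transfer protein and a kinase of the COL4A3 product, rose by 0.13 (adjusted p = 0.000223). TGM2, a transglutaminase, had a log2 fold change of -0.09 (adjusted p = 0.0433), and its call ended under 6 of 16 alternatives (highest adjusted p 0.295), which were DESeq2 and leaving out parental replicate 1, 3 or 4 or GNAS R201C/+ replicate 2 or 4.

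Of 30 other basement membrane genes 21 were tested, 11 were called higher, 5 lower and 5 were not called, with a median log2 fold change of 0.09. The called share was 76.2%, beside 48.1% over all tested genes. COL18A1, which encodes the core protein of a basement membrane proteoglycan, rose from 257 ± 4.18 to 325 ± 6.76 CPM (log2 fold change 0.34, edgeR adjusted p = 7.34e-18). LAMB3 and LAMA3, which encode chains of the laminin of epithelial anchoring complexes, rose by 0.33 (adjusted p = 7.76e-14) and 0.62 (7.85 to 12.1 CPM, adjusted p = 1.22e-12). LAMC1, a chain of most other laminins, fell by 0.18 on the log2 scale (adjusted p = 1.09e-09). Larger falls were called for genes at lower levels. LAMA4 changed by -1.38 on 4 to 24 reads per library (adjusted p = 0.000292). HMCN1 changed by -0.71 (adjusted p = 7.61e-05) and SPARC by -0.71 (adjusted p = 5.07e-05). COL17A1, a transmembrane collagen of hemidesmosomes, rose from 1.71 to 3.09 CPM (0.85, adjusted p = 1.23e-08). NID1 and NID2, the nidogens that link laminin to type IV collagen, were under the filter, at 0.0373 CPM or less.

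Among 12 listed receptors for collagen and other matrix proteins, 10 were tested, 4 were called higher, none lower and 6 were not called. The called share of 40% was below the 48.1% over all tested genes. The median log2 fold change was 0.09. ADGRG6, an adhesion G protein-coupled receptor that binds type IV collagen, rose from 159 ± 3.26 to 244 ± 5.31 CPM (log2 fold change 0.62, edgeR adjusted p = 4.43e-26). DAG1, dystroglycan, rose by 0.17 (adjusted p = 4.4e-09), ITGB1, the beta chain of collagen-binding integrins, by 0.14 (adjusted p = 4.29e-08), and ITGAV by 0.15 (adjusted p = 1.5e-06). The collagen-binding alpha chains ITGA1 and ITGA2 were not called, at log2 fold changes of -0.29 (adjusted p = 0.0627) and 0.04 (adjusted p = 0.345).

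Proteases that cleave type IV collagen and their inhibitors numbered 19, of which 11 were tested. Of these, 3 were called higher, 3 lower and 5 were not called, and the median log2 fold change was -0.0065. The called share was 54.5%, beside 48.1% over all tested genes. TIMP1, a metalloproteinase inhibitor, rose from 64.5 to 83.1 CPM (log2 fold change 0.36, edgeR adjusted p = 6.02e-16) and MMP15, a membrane metalloproteinase, from 89.9 to 111 CPM (0.30, adjusted p = 7.86e-15). MMP7, matrilysin, fell by 2.98 on the log2 scale (adjusted p = 5.27e-12), with 34 to 44 reads in the parental and 3 to 8 in the GNAS R201C/+ libraries. CTSB, cathepsin B, fell by 0.21 on the log2 scale (adjusted p = 0.00013). The gelatinase gene MMP9 was higher by 0.68 on 10 to 32 reads per library (adjusted p = 0.0244), and its call ended under 4 of 15 alternatives (highest adjusted p 0.138), which were DESeq2 and leaving out parental replicate 2 or 3 or GNAS R201C/+ replicate 4. MMP2, the other gelatinase gene, was under the filter.

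Of 38 collagen genes outside the family 17 were tested, 8 were called higher, 1 lower and 8 were not called, with a median log2 fold change of 0.18. The called share was 52.9%, beside 48.1% over all tested genes. The list overlaps that of other basement membrane genes. COL18A1 and COL17A1, both called higher, and COL7A1 and COL15A1 are in both. COL6A1 rose by 0.26 (edgeR adjusted p = 4.61e-14) and COL6A2 by 0.14 (adjusted p = 2.01e-06); both encode chains of the beaded filaments. COL13A1, a transmembrane collagen, was the 1 gene called lower, from 13.95 ± 0.264 to 8.24 ± 0.398 CPM (log2 fold change -0.76, adjusted p = 8.94e-16). The highest log2 fold change of a called gene in this list was 0.97 for COL20A1, on 5 to 17 reads per library (adjusted p = 0.0117), below both COL4A5 and COL4A6. That call ended with DESeq2 and without parental replicate 1. COL4A5 and COL4A6 had larger positive log2 fold changes than any tested gene of the other 6 lists in the plot of list members. The family was chosen on this contrast, so that order is a description and nothing more is read from it.

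**Figure D5:**
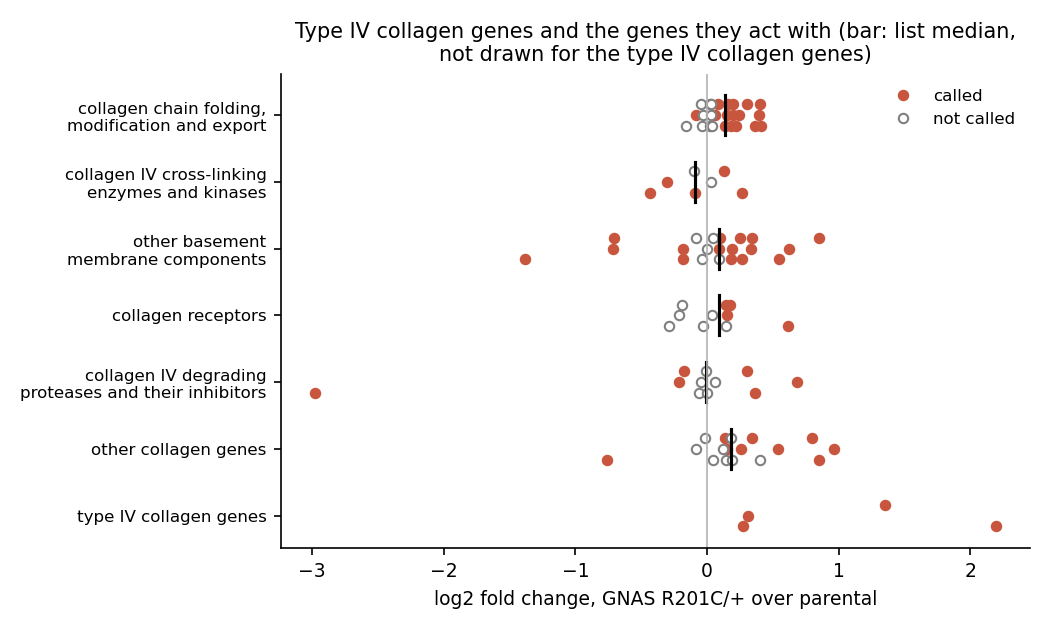
Log2 fold change (GNAS R201C/+ over parental) of tested genes in each list of collagen-related genes and of the 4 type IV collagen genes that passed the filter. Filled circles are called genes, open circles genes not called, and bars list medians, which are not drawn for the type IV collagen genes. COL4A5 and COL4A6, of the family chosen on this contrast, lie to the right of every other gene shown. MMP7, at -2.98, lies farthest to the left.

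Markers of cell types known for type IV collagen networks were read beside the members. Over all tested genes 48.1% were called, 24.1% as higher. Of 6 smooth muscle and pericyte markers 4 were tested, 3 were called higher, none lower and 1 was not called. The called genes were DES (log2 fold change 0.72, edgeR adjusted p = 2.66e-10), TAGLN (0.47, adjusted p = 2.52e-05) and ACTA2 (0.31, adjusted p = 0.00311). Summed over all 6 listed genes, the level was 12.4 to 15.1 CPM in parental and 17.6 to 18.7 CPM in GNAS R201C/+ libraries. MYH11, the smooth muscle myosin heavy chain, was at 0 in all 8 libraries and CNN1 had at most 0.0927 CPM on average. Of 5 podocyte markers 3 were tested, and NPHS1 was not called. SYNPO rose by 0.76 (adjusted p = 3.27e-15), and PODXL fell by 0.13 on the log2 scale (adjusted p = 1.03e-05); the summed level of the list was 169 to 171 CPM in parental and 157 to 170 CPM in GNAS R201C/+ libraries.

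Of 10 fibroblast markers 3 were tested and none was called by edgeR, beside 48.1% of all tested genes called, 24.1% as higher. COL1A1 was at 30.2 ± 1.64 and 29.9 ± 0.988 CPM (adjusted p = 0.77), and TWIST1 at 1.91 ± 0.0981 and 1.78 ± 0.312 CPM (adjusted p = 0.527); the summed level was 30.8 to 34.4 and 31.0 to 33.5 CPM. Of 8 endothelial markers 2 were tested and none was called, ESAM (6.34 and 5.78 CPM, adjusted p = 0.119) and VWF (0.456 and 0.525 CPM, adjusted p = 0.563), with a summed level of 6.78 to 7.33 and 6.29 to 6.99 CPM. Of the colon epithelial markers, 4 were called higher and 1 lower: CDH1 (0.33), KRT8 (0.25), KRT18 (0.22) and EPCAM (0.11) rose, with adjusted p of at most 2.53e-05. CDX2 had a log2 fold change of -0.09 (adjusted p = 0.0421), and its call ended under 8 of 16 alternatives (highest adjusted p 0.13), among them those without parental replicate 3 or 4 or GNAS R201C/+ replicate 1, 2 or 3. The part of any of these marker genes in the members' differences was not tested.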

How the data were processed

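The 4 parental and 4 GNAS R201C/+ libraries came from total RNA through a strand-preserving kit, per the labels' protocols. The authors deposited raw counts, a whole number of reads for each of 60609 Ensembl identifiers in 8 columns, and 0 columns of per-sample values were left unused. Per the submitters' processing notes, the tools were STAR, featureCounts, Trimmomatic, bcl2fastq and DESeq2, on the GRCh38.p12 build, with no versions. Which annotation release was counted, with what strand setting, and how reads mapping to several places were handled is not given in the sources used here. Overlapping antisense genes may therefore mix their reads, and values of genes with near-identical copies are uncertain.

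Identifiers were matched without version to GENCODE 29 (58457 matched, another 2088 by a table of gene names, 64 not at all). Counts were analysed in R 4.3.3 with edgeR 4.0.16. The filterByExpr filter (minimum count 10, minimum total 15) kept 15751 of 32806 genes with any read. TMM scaling, a robust quasi-likelihood fit with group as its only term and Benjamini-Hochberg adjustment over all tested genes followed, with calls at an adjusted p under 0.05. The fit was tested on simulated data. Levels are CPM on TMM-adjusted library sizes. Standard errors of log2 fold changes come from the variances of log2 CPM (prior count 2) over the 4 libraries of each group. Since separate cultures are not documented, p-values reflect only library-to-library spread, which may be technical. No 2 replicates agreed within sampling noise (chi-square per degree of freedom 1.62 to 4.11), so each was counted once.

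Levels per kb used the union of exons, with the longest coding transcript as an alternative. The other alternatives were DESeq2 1.42.0, limma-voom (limma 3.58.1), other scalings, other filters on low counts, a block for the replicate number and, in turn, the omission of each library.

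The members and the gene lists were chosen with earlier results of these data known. The naming rule took all 6 members, genes sharing exonic bases with them, GNAS, up to 5 called genes of each list with the smallest adjusted p (or, with none called, up to 2 of highest CPM), the IRS gene beside each pair, and the 5 genes nearest each member by RMS difference. Other genes named were chosen after their values were seen. The values of 1 listed marker gene are not reported here.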

Additional observations from a re-analysis of the deposited data

Results flagged for a closer look

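Among 124 groups of 4 libraries examined for a library far from the other 3, 6 were picked out; chance alone gives about 1 in 20. Among the members, COL4A4 had 18.09 CPM in parental replicate 2, above 16.2 to 16.47 CPM in the other parental libraries. Without that library its log2 fold change kept its direction and its call.

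The others are genes of the lists. CREB3L2 had 109.1 CPM in GNAS R201C/+ replicate 2, above 102.7 to 103.5 CPM in the other libraries of that group. COL13A1 had 7.651 CPM in the same library, below 8.377 to 8.487 CPM. EPCAM had 331.7 CPM in parental replicate 4, above 315.2 to 318 CPM, and ACTA2 had 3.332 CPM in that library, below 4.523 to 4.644 CPM. TSC22D3 had 5.845 CPM in parental replicate 1, below 6.262 to 6.288 CPM. In each of these genes the difference between the groups kept its direction and its call when the library was left out.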

How the results depend on the processing

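The family was chosen on this contrast, and in the main fit 48.1% of all tested genes were called, 24.1% as higher. Under all 16 alternatives the 4 members that passed the filter were called higher. Their log2 fold changes ranged from 0.23 to 0.35 for COL4A3, 0.28 to 0.35 for COL4A4, 1.32 to 1.37 for COL4A5 and 2.14 to 2.24 for COL4A6. The number of genes called was 7577, between 6369 (DESeq2) and 7611 (library totals), and 6905 to 7442 with one library left out. The gene length moved levels within pairs. With the longest coding transcript or with raw reads, the COL4A4 to COL4A3 log2 ratio in GNAS R201C/+ cells was 1.35 or 1.66, and the COL4A6 to COL4A5 ratio was -3.61 or -3.55 in parental and -2.76 or -2.71 in GNAS R201C/+ cells. The share of COL4A5 and COL4A6 with the longest coding transcript, an alternative added after the data were seen, was 60.8% in parental and 77.3% in GNAS R201C/+ cells. A fixed length cancels in the difference between groups. With one library left out, the log2 fold change ranged from -0.051 to 0.013 for COL1A1 and from -0.18 to 0.013 for TWIST1, neither of them called; COL1A1 was 0.013 without parental replicate 2 and 0.0016 without GNAS R201C/+ replicate 1, and the cause was not tested. Of 893 values for 56 single genes, 853 kept direction and side of the threshold; of 224 list counts, 222 stayed within 1.5 times. With no filter, 1 fibroblast marker was called, and without GNAS R201C/+ replicate 1, 1 neighbour of COL4A1 and COL4A2. MMP7, MMP9 and VWF could not be tested with the filter of 1 CPM. The replicate numbers did not pair the libraries (correlations of same-numbered deviations -0.047, 0.0538, -0.0288 and -0.0362; 1 of 4 best matched its own number). With the replicate number as a block, 7413 genes and 4 members were called. Depth limits COL4A1 and COL4A2, at 2 to 9 reads per library.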

Other observations

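For 4 collagens built from several kinds of chain, picked after the values were seen, the chains stood at unlike levels. COL1A1 stood at 3.08 ± 0.167 CPM per kb of union exonic length in parental and 3.05 ± 0.101 in GNAS R201C/+ cells (SD, n = 4 each). Its partner chain COL1A2 had 6 reads over all 8 libraries. COL6A1 stood at 41.6 ± 0.413 and 49.8 ± 1.22 CPM per kb and COL6A2 at 27.7 ± 0.237 and 30.5 ± 0.982, while COL6A3, which encodes a chain that joins both in the classical type VI protomer, had 5 to 11 reads per library. COL9A3 stood at 14.9 ± 0.327 and 16.5 ± 0.548 CPM per kb and COL9A2 at 1.59 ± 0.131 and 1.73 ± 0.0795, while COL9A1 had 5 reads in all.

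The fourth is type V, with COL5A2 at 0.429 ± 0.0528 and 0.490 ± 0.0292 CPM per kb, beside COL5A1 with 5 to 13 reads per library. The cartilage chains COL10A1 and COL11A2, and also COL22A1, COL6A5 and COL8A1, had no read in any library. Beside them, COL12A1 and COL18A1, whose products are made of a single kind of chain, stood at 22.1 ± 0.868 and 30.1 ± 0.490 CPM per kb in parental cells. RNA levels do not measure chains or assembled protomers.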
